A study of Mus musculus with 2 samples.

Results

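The cells described here are endothelial barcodes of newborn mouse kidney that carry Ehd3 transcripts and little Gja4. A barcode stands for 1 droplet, usually 1 cell, and a UMI for 1 captured transcript molecule. The filter on quality was a minimum of 1000 UMIs and 500 genes per barcode, with mitochondrial UMIs at 20% or less. Among the barcodes left, the cells were chosen by their measured counts of 5 genes, namely at least 2 Pecam1 UMIs, at least 1 Cdh5 UMI, at least 2 Ehd3 UMIs, at most 1 Gja4 UMI and 0 Ptprc UMIs. This gave 261 of 9227 kept barcodes, 172 of 5040 in the Flcn KO library and 89 of 4187 in the Flcn WT library. The working name of these cells was Ehd3-positive glomerular endothelium. Several genes of the glomerular endothelial programme went against that name, so the cells are called Ehd3-positive Gja4-low endothelium.

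The study is a single-cell RNA-seq experiment on kidneys of mice at postnatal day 0, with 1 library per genotype. The library labelled Flcn KO came from mice with Six2Cre and 2 floxed Flcn alleles (Six2Cre; Flcn flox/flox). The library labelled Flcn WT came from mice with Six2Cre and 1 floxed allele (Six2Cre; Flcn flox/+), so it also carried Cre and is a heterozygote. The tissue label reads embryonic kidney, and the number of animals per library is not given in the sources used here. Six2Cre is active in nephron progenitors, and endothelium lies outside that lineage. With 1 library per genotype no difference has a replicate check, no test was possible, and every 95% interval covers counting error only.

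The capillary tuft of the glomerulus is lined by a fenestrated endothelium that filters plasma together with the podocytes around it. Podocytes supply VEGF-A, which acts on the endothelial receptor KDR, and transcription factors such as GATA5 and TBX3 mark this endothelium in mouse. EHD3 is a membrane-remodelling protein of endocytic recycling whose transcript is widely used as a marker of glomerular endothelium. GJA4, the gap junction protein connexin 37, and GJA5, connexin 40, are typical of arterial and arteriolar endothelium, whereas PLVAP forms the diaphragms of fenestrae in other capillaries of the kidney. Folliculin, the product of Flcn, works at the lysosomal surface in a complex with FNIP proteins, and without it TFEB and TFE3, which drive lysosomal genes, gather in the nucleus.

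The promoters of Ehd3, a gene of the rule, and of Kdr and Emcn, expressed by kidney endothelium in general, are shown. The reason is that ETS factors such as ERG, which bind a GGAA core, are general regulators of endothelial genes. Each sequence runs from 250 bases before to 50 bases after the gene's start in RefSeq on GRCm38.p6, with GGAA and its reverse complement TTCC in capitals. They lie at chr17:73804591-73804890 on the plus strand (Ehd3), chr5:75978406-75978705 on the minus strand (Kdr) and chr3:137340828-137341127 on the plus strand (Emcn).
Ehd3: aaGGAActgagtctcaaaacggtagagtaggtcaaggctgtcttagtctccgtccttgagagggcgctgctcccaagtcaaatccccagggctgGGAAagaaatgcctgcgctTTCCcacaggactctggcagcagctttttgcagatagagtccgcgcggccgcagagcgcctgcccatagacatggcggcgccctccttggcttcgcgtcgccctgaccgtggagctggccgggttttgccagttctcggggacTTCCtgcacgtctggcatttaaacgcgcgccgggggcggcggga
Kdr: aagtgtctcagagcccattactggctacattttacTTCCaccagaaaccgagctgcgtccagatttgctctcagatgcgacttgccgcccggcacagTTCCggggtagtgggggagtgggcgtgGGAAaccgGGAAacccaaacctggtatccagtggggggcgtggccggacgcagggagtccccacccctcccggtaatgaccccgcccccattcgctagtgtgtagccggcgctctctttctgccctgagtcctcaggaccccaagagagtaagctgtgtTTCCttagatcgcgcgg
Emcn: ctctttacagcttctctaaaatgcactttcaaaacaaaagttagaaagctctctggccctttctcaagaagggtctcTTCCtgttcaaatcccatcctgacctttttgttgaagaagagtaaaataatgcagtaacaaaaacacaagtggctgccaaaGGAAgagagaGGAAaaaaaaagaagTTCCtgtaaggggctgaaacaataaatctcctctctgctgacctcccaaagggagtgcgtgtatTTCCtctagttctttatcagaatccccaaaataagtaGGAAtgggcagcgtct
The core occurred 4 times in the Ehd3 promoter, 5 times in that of Kdr and 6 times in that of Emcn, counted on both strands. Of 32851 promoters of 300 bases, 96.0% held at least 1 core and the median held 3. At least as many cores as in Ehd3 were found in 46.3% of promoters, as many as in Kdr in 28.6% and as many as in Emcn in 15.7%. These matches describe the letters of the window and say nothing about binding.

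Ehd3-positive Gja4-low barcodes were 3.41% of kept barcodes in Flcn KO (exact Clopper-Pearson 95% interval 2.93 to 3.95%) and 2.13% in Flcn WT (1.71 to 2.61%). Of the 813 endothelial barcodes (Pecam1, Cdh5 and Ptprc as above) they were 35.1% in Flcn KO (30.9 to 39.5%) and 27.6% in Flcn WT (22.8 to 32.8%), intervals that overlap. They were deep, with a median of 47582.5 UMIs in Flcn KO and 52728 in Flcn WT, against 18785 and 17854 in endothelium with at most 1 Ehd3 and at most 1 Gja4 UMI (241 Flcn KO and 177 Flcn WT barcodes). A threshold in UMIs is passed more readily by a deep barcode. When each barcode was first thinned to 10000 UMIs, the share of endothelium was 16.1% in Flcn KO and 13.5% in Flcn WT. No barcode sequence of these cells was shared between the libraries.

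Some of these barcodes also held transcripts of other cell types. By 7 short lists of marker genes, chosen after seeing the data, 14 Flcn KO and 15 Flcn WT barcodes had at least 10 UMIs of 1 other type and are called mixed. In Flcn KO 11 of the 14 passed on stromal and 7 on mural genes, whereas in Flcn WT 10 of the 15 passed on tubule genes, 4 on nephron progenitor genes and 3 on podocyte genes. The 10 tubule genes summed to 374 UMIs in Flcn KO and 2685 in Flcn WT (41.0 and 545 CPM), from 0 to 39 per barcode in Flcn KO and from 0 to 846 in Flcn WT. The 4 stromal genes gave 370 UMIs in Flcn KO (0 to 56 per barcode) and 34 in Flcn WT (0 to 13). CPM is the summed UMI count scaled to a common total of nuclear-encoded UMIs. Without mixed barcodes, 158 Flcn KO and 74 Flcn WT barcodes remained, with 306 and 120 tubule UMIs and 45 and 13 stromal UMIs. Between the libraries, values from Zbtb16 to Dlk1 and from VEGF signalling to the ribosomal proteins leave out mixed barcodes unless stated. Other values include them unless stated. Those of epithelium, stroma, Gja4-positive endothelium and endothelium low for Ehd3 and Gja4 always do. Where the median of a list described here lay on different sides of 0 with and without mixed barcodes, both are given.

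The 4 genes taken as markers were present, as the rule requires for Ehd3 and Cdh5. Ehd3 had 1042 UMIs in Flcn KO and 670 in Flcn WT, with a median of 4 per barcode in both and a highest value of 42 and 63. Emcn, the sialomucin endomucin, stood at 1442 CPM in Flcn KO and 1431 CPM in Flcn WT, against 3.79 and 2.51 CPM in Epcam-positive epithelium. Kdr reached 519 and 525 CPM, against 3.15 and 0.704 CPM in epithelium. Both were far above the epithelial level, and both are expressed by endothelium of the kidney in general. In endothelium low for Ehd3 and Gja4, Emcn was at 1195 and 1208 CPM and Kdr at 454 and 436 CPM.

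Genes more particular to glomerular endothelium were low. Gata5 had 3 UMIs over the 172 Flcn KO barcodes and 4 over the 89 Flcn WT barcodes. In 31 endothelial barcodes with at least 2 Ehd3 and at least 2 Gja4 UMIs, a group looked at after seeing the data (15 Flcn KO, 16 Flcn WT), Gata5 had 13 and 44 UMIs. This is 8.096 CPM in Flcn KO and 30.04 CPM in Flcn WT, against 0.329 and 0.812 CPM in Ehd3-positive Gja4-low endothelium. Of the endothelial barcodes with at least 2 Gata5 UMIs, 1 of 5 in Flcn KO and 1 of 7 in Flcn WT belonged to Ehd3-positive Gja4-low endothelium, while 3 and 6 had both Ehd3 and Gja4.

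The same order was seen for other genes of the programme. Nostrin, which regulates trafficking of endothelial nitric oxide synthase, was at 11.5 CPM in Flcn KO and 14.6 CPM in Flcn WT, against 49.8 and 88.8 CPM in the barcodes with both genes. Tbx3 was at 20.8 and 33.5 CPM, against 77.2 and 124 CPM. Pi16, a peptidase inhibitor, was at 2.63 and 4.06 CPM, against 9.34 and 38.9 CPM. The 3 genes were lower in Ehd3-positive Gja4-low endothelium in both libraries with mixed barcodes included. Plat, tissue plasminogen activator, was at 98.8 and 129 CPM, against 136 and 428 CPM, a wider gap in Flcn WT than in Flcn KO. Ehd3 itself was at 114 against 117 CPM in Flcn KO, nearly level, and at 136 against 562 CPM in Flcn WT.

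Some of the barcodes with both genes were mixed too, and 10 Flcn KO and 12 Flcn WT were not. With mixed barcodes left out of both groups, Gata5 was at 0.369 CPM in Flcn KO and 1.16 CPM in Flcn WT in Ehd3-positive Gja4-low endothelium, against 4.87 and 14.96 CPM in the barcodes with both genes, on 6 and 15 UMIs. Nostrin was at 12.2 and 14.8 CPM, against 35.7 and 69.8 CPM. Tbx3 was at 17.4 and 35.1 CPM, against 67.4 and 88.7 CPM. These 3 kept the order in both libraries. Pi16 was at 2.83 and 4.93 CPM, against 4.06 and 38.9 CPM, on 5 and 39 UMIs, so in Flcn KO its difference rests on few UMIs. Ehd3 turned in Flcn KO, at 117 against 62.5 CPM, and was at 171 against 254 CPM in Flcn WT.

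Over the list of 20 glomerular programme genes, the barcodes with both genes were the higher in 14 of 19 measured genes in Flcn KO and 19 of 20 in Flcn WT. Of all genes with at least 10 UMIs 49% and 43.1% were the higher. At least 1.5-fold higher were 7 and 15 genes of the list, and 14.7% and 11.4% of all genes. The median log2 ratio of the list was 0.46 and 1.80, against -0.01 and -0.08 for all genes. Without mixed barcodes 13 of 18 genes of the list were the higher in Flcn KO and 17 of 19 in Flcn WT, where 47.3% and 47.7% of all genes were, and the medians were 0.58 and 1.13. These ratios describe the grouping, since the rule chose the barcodes by Ehd3 and Gja4. A depth difference goes with it: the barcodes with both genes had a median of 114929 UMIs in Flcn KO and 90249 in Flcn WT. Markers of other cell types go with it as well while mixed barcodes are included. Mural and mesangial markers were higher in the barcodes with both genes for 2 of 8 in Flcn KO (median -1.78) and 8 of 9 in Flcn WT (median 4.72). Proximal tubule markers were so for 5 of 5 (median 2.47) and 3 of 7 (median -0.28), and markers of the loop of Henle and distal tubule for 4 of 4 (median 3.59) and 0 of 4 (median -0.75). Without mixed barcodes the medians of mural markers were 0.46 in Flcn KO and -1.07 in Flcn WT, of proximal tubule markers -0.12 and -0.54, and of loop and distal markers -0.30 and -0.07. The part of depth and of these other cell types in the contrast was not tested.

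**Figure D1:**
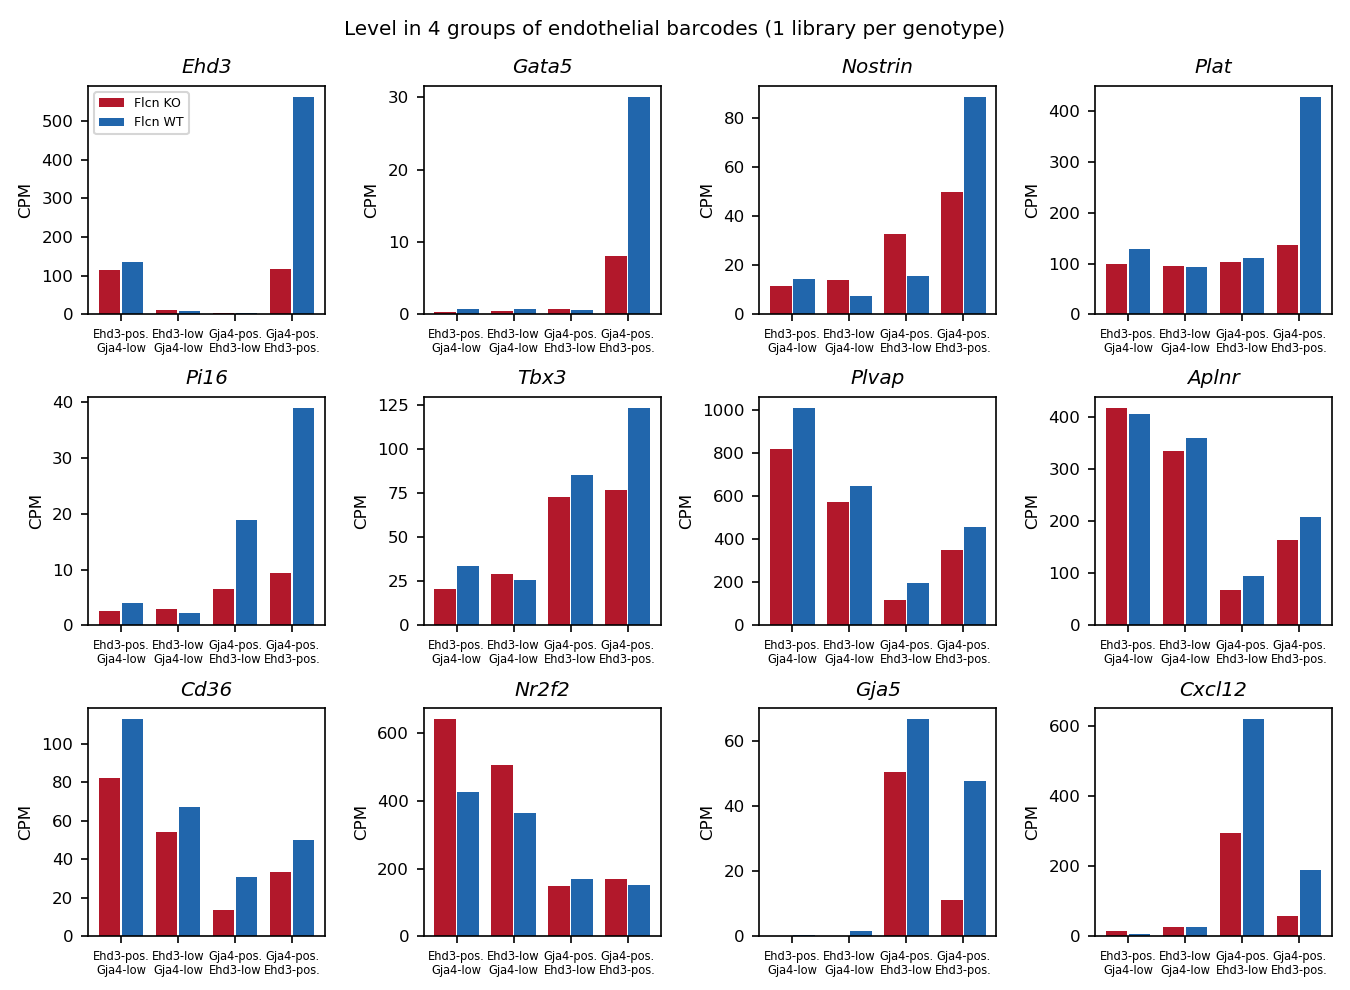
Level in CPM (vertical axes, linear from 0) of 12 genes in 4 groups of endothelial barcodes, Flcn KO in red and Flcn WT in blue, each bar the summed UMIs of 1 library with no error bar. Gata5, Nostrin, Pi16 and Tbx3 are highest in barcodes with both Gja4 and Ehd3, mixed ones included, whereas Plvap, Aplnr, Cd36 and Nr2f2 are highest in Ehd3-positive Gja4-low endothelium.

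Values on both sides of the threshold were as follows. With exactly 2 Ehd3 UMIs (43 Flcn KO and 27 Flcn WT barcodes), Emcn was at 1382 CPM in Flcn KO and 1474 CPM in Flcn WT, and Plvap at 725 and 1056 CPM. Just outside, with exactly 1 Ehd3 UMI and all else alike (72 and 47 barcodes), Emcn was at 1246 and 1281 CPM and Plvap at 648 and 827 CPM. The median depth was 43178 and 37897 UMIs just inside the threshold, against 28974 and 26935 UMIs just outside it. On the Gja4 side, 12 Flcn KO and 7 Flcn WT barcodes with exactly 1 Gja4 UMI were inside, and 1 and 4 with exactly 2 Gja4 UMIs and at least 2 Ehd3 UMIs were outside. Nostrin was at 34.1 and 64.1 CPM in the barcodes with exactly 1 Gja4 UMI, against 9.001 and 10.7 CPM in those with none. At the other end, 7 Flcn KO and 6 Flcn WT barcodes had at least 20 Ehd3 UMIs. In these Gata5 had 0 UMIs in Flcn KO and 4 in Flcn WT, and Nostrin 5 and 15.

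Set against all other endothelial barcodes (318 Flcn KO and 234 Flcn WT), Ehd3-positive Gja4-low endothelium was lower in arterial transcripts and higher in Plvap, Cd36, Aplnr and other single genes of capillaries. These ratios are a description too, with no test, because the rule used genes of the same cells. Of 12116 genes with enough UMIs, 142 (1.17%) were at least 1.5-fold higher in both libraries and 410 (3.38%) at least 1.5-fold lower. At 2-fold the counts were 12 (0.099%) and 178 (1.47%). Against endothelium low for Ehd3 and Gja4 alone, 31 of 11390 genes were at least 1.5-fold higher in both libraries and 212 lower. Against Gja4-positive endothelium 679 of 10828 genes were higher and 536 lower.

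Plvap, which forms the diaphragms of fenestrae and caveolae, was at 818 CPM in these cells of Flcn KO against 429 CPM in other endothelium, and at 1009 against 521 CPM in Flcn WT. Hs6st3, a heparan sulfate 6-O-sulfotransferase, was at 422 against 204 CPM in Flcn KO and 614 against 265 CPM in Flcn WT. The fatty acid receptor Cd36 was at 82.03 against 41.3 CPM and 113 against 56.7 CPM. Against other endothelium, which includes Gja4-positive barcodes, each of the 3 was close to 2-fold higher in both libraries. The gap in Plvap was smaller against its barcodes with at most 1 Gja4 UMI. With exactly 1 Ehd3 UMI these had 648 CPM in Flcn KO and 827 CPM in Flcn WT, and with 0 Ehd3 UMIs 519 and 563 CPM. Among the 12 genes ranked highest were also Nlgn1, a neuroligin, at 951 against 435 and 964 against 509 CPM, the transmembrane collagen Col13a1, and Ptgs1, cyclooxygenase-1. Col4a3, a collagen IV chain of the glomerular basement membrane, ranked there as well, but its level depended on mixed barcodes: 27.5 CPM in Flcn KO and 114 CPM in Flcn WT with them, 20.3 and 16.5 CPM without.

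Aplnr, the apelin receptor, was at 418 CPM in Flcn KO and 405 CPM in Flcn WT, against 245 and 279 CPM in other endothelium. Nr2f2, the venous transcription factor COUP-TFII, was at 641 and 427 CPM, against 367 and 285 CPM. Tek, the angiopoietin receptor TIE2, was at 620.2 and 677 CPM, against 366 and 401 CPM. All 3 were higher in both libraries. Of 13 measured capillary and venous genes, 8 were higher than in other endothelium in Flcn KO and 7 in Flcn WT, with medians of 0.35 and 0.21 log2, where 45.2% and 49.6% of all genes were higher.

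Among the lowest genes were Gja5 at 0.1095 CPM against 13.9 CPM in other endothelium of Flcn KO and 0.406 against 23.4 CPM in Flcn WT. The water channel Aqp1 was at 4.05 against 206 CPM in Flcn KO and 8.33 against 116 CPM in Flcn WT. The chemokine Cxcl12 was at 15.8 against 96.1 CPM in Flcn KO and 7.11 against 177 CPM in Flcn WT. Stmn2, Tox2, Sox6, Tgfb2, Nebl, Hpgd and Vegfc belonged to the same 12, besides Gja4, which the rule limits, and Slc12a1, a transporter of tubule epithelium. With mixed barcodes none of 14 arterial genes was higher in either library, and the median was -1.70 log2 in Flcn KO and -3.68 log2 in Flcn WT, against -0.03 in Flcn KO for all genes. The rule leaves Gja4-positive barcodes to other endothelium, and without mixed barcodes 2 of 14 were higher in Flcn KO and 0 of 14 in Flcn WT, with medians of -1.64 and -1.94 log2.

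Between the libraries, the number of genes lower in Flcn KO depended on mixed barcodes. Of 12144 genes with at least 50 UMIs, 169 (1.39%) were at least 2-fold higher in Flcn KO and 366 (3.01%) at least 2-fold lower. Without mixed barcodes, of 11335 genes 161 (1.42%) were at least 2-fold higher and 59 (0.521%) lower. Many genes ranked lowest with mixed barcodes are known from the proximal tubule. Slc5a12, a lactate transporter, had 2 UMIs in Flcn KO and 182 in Flcn WT, all 182 in 3 barcodes. Pck1, of gluconeogenesis, had 3 UMIs in Flcn KO and 186 in Flcn WT, of which 3 barcodes held 89.2%.

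Fut9, Spp2, Slc34a1, Gsta2, Fbp1, Fhod3, Gpc5, Lrp2 and Cltrn were also in that ranking. On the higher side stood matrix genes of stroma. Col3a1 had 354 UMIs in Flcn KO and 11 in Flcn WT with mixed barcodes, and 33 and 4 without. Col1a1, Col1a2, Tcf21, Mgp, Lrriq1, Kcnb2 and Magi2 were ranked beside it. Of the 1553 Magi2 UMIs in Flcn KO, 1420 came from 1 barcode. Slc34a1, Lrp2 and Col1a1 are themselves among the genes that define mixed barcodes.

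**Figure D2:**
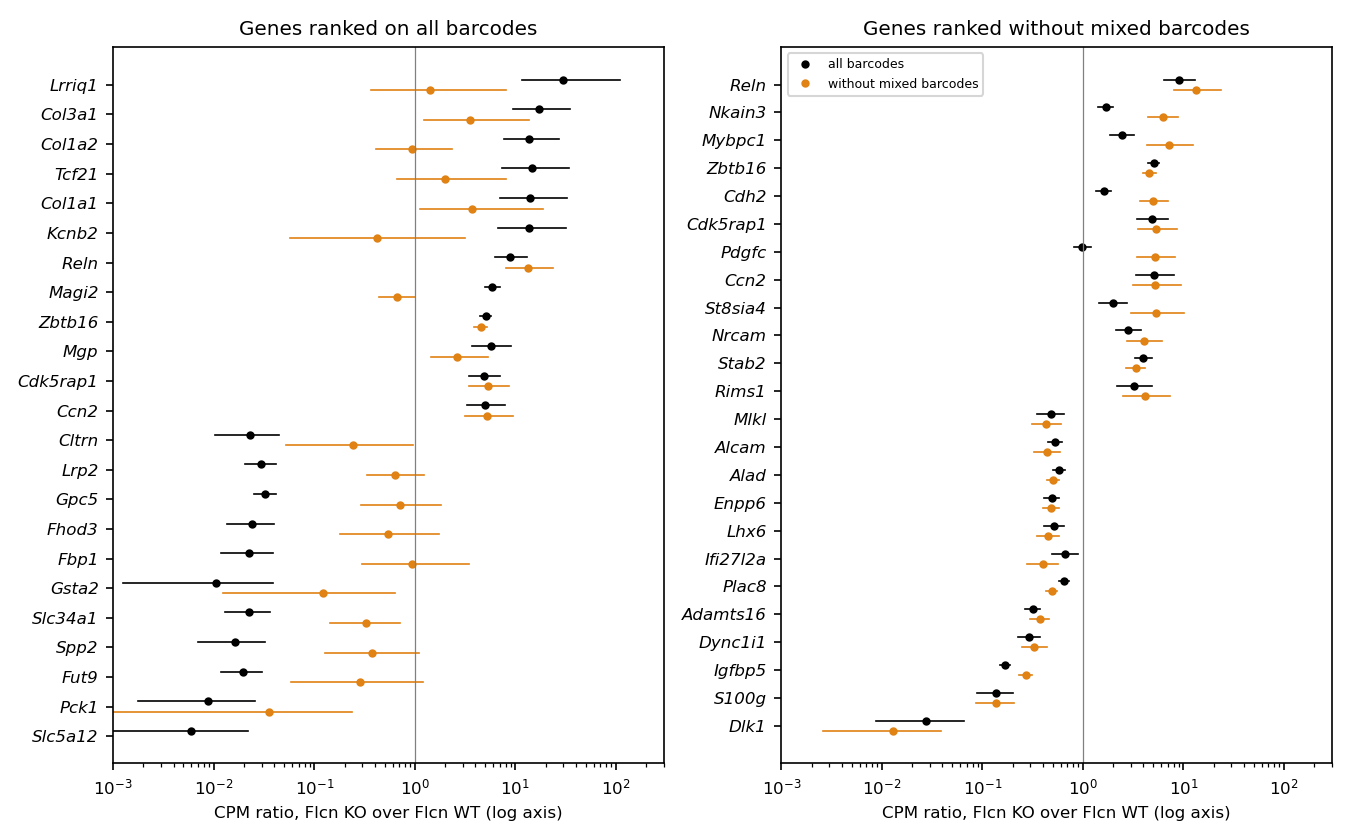
Ratio of CPM, Flcn KO over Flcn WT (log axes), of the highest and lowest genes ranked with all barcodes (left) and without mixed barcodes (right), with 95% counting intervals that are cut at the axis limits. Black points use all 172 Flcn KO and 89 Flcn WT barcodes and orange points the 158 and 74 without mixed ones. On the left most orange points lie closer to 1 than the black ones, and Slc5a12, with 1 UMI left in Flcn KO and 0 in Flcn WT, has no orange point.

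Beside values without mixed barcodes, those of other endothelium also leave out its mixed barcodes (280 Flcn KO and 204 Flcn WT left). 4 genes were among the 12 highest in both rankings, namely Zbtb16, Reln, Cdk5rap1 and Ccn2. Zbtb16, a zinc finger transcription factor also called PLZF, had 2108 UMIs in Flcn KO and 197 in Flcn WT without mixed barcodes. The median per barcode was 9.5 in Flcn KO (highest 74) and 1 in Flcn WT (highest 17). The level was 259.6 CPM in Flcn KO against 57.1 CPM in Flcn WT, a ratio of 4.54 (3.92 to 5.28), and 5.06 with mixed barcodes. The difference was thus spread over many barcodes. Ratios elsewhere were 3.72 in other endothelium, 3.05 in Epcam-positive epithelium and 3.73 in Pdgfra-positive stroma.

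Cdk5rap1, an enzyme that modifies mitochondrial tRNA, had 290 UMIs in Flcn KO and 23 in Flcn WT. The median per barcode was 1 against 0 and the highest 15 against 2. The ratio was 5.35 (3.498 to 8.58), beside 4.29 in other endothelium, 2.08 in epithelium and 2.26 in stroma. All 4 groups were higher in Flcn KO.

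Reln, the secreted glycoprotein reelin, had 501 UMIs in Flcn KO and 16 in Flcn WT, or 61.7 against 4.64 CPM, a ratio of 13.3 (8.104 to 23.4). The median per barcode was 0 in both libraries, and 3 Flcn KO barcodes held 32.9% of the UMIs there, up to 88 in 1. With mixed barcodes included, the ratio was 5.85 (4.45 to 7.81) in endothelium low for Ehd3 and Gja4. It was 0.705 (0.582 to 0.853) in Gja4-positive endothelium, likewise with mixed barcodes. In stroma, where Reln stood at 241 and 128 CPM, the ratio was 1.87.

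Ccn2, a matrix-associated signalling protein also called CTGF, had 198 UMIs in Flcn KO and 16 in Flcn WT, a ratio of 5.25 (3.16 to 9.37). It was 2.596 in other endothelium without mixed barcodes, 0.616 in Gja4-positive endothelium and 1.104 in epithelium. The ratio was thus below 1 in Gja4-positive endothelium and above 1 in the other groups named. Gja4-positive barcodes are part of other endothelium, and their ratio here includes mixed barcodes, so the endothelial groups are not alike. The difference was not tested.

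Stab2, the hyaluronan scavenger receptor stabilin-2, was among the 12 highest without mixed barcodes, at 771 UMIs in Flcn KO and 98 in Flcn WT. The highest barcode held 33 in Flcn KO and 14 in Flcn WT, and the ratio was 3.34 (2.703 to 4.16). Other endothelium without mixed barcodes gave 1.91, and epithelium and stroma hardly had the transcript, with 9 and 3 UMIs in Flcn KO and 11 and 5 in Flcn WT. Reln and Stab2 are also known from lymphatic endothelium, so genes of that type are given beside them. Prox1, its defining transcription factor, was at 29.4 CPM in Flcn KO and 15.1 CPM in Flcn WT. Lyve1, another hyaluronan receptor, went the other way, at 3.57 against 18.3 CPM, and Pdpn had 2 and 0 UMIs. Of the 5 lymphatic genes measured, 4 were higher in Flcn KO, Reln included, where 49.6% of all genes were. Their part in the 2 ratios was not tested.

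The other genes ranked highest without mixed barcodes were unevenly spread over barcodes. Nkain3 had 555 UMIs in Flcn KO and 38 in Flcn WT, Mybpc1 286 and 17, Cdh2 521 and 44, and Pdgfc, a platelet-derived growth factor, 294 and 24. With mixed barcodes the ratio of Pdgfc was 0.989, against 5.1995 without them. St8sia4, Nrcam and Rims1 had ratios of 5.32, 4.02 and 4.14, and each had a median of 0 UMIs per barcode in both libraries. With the rule applied after thinning to 10000 UMIs, the ratios of Cdh2, Mybpc1 and St8sia4 were 0.3798, 0.580 and 0.875, below 1.

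Among genes lower in Flcn KO without mixed barcodes, S100g, the calcium-binding protein calbindin-D9k, had 29 UMIs in Flcn KO and 91 in Flcn WT. This is 3.57 against 26.4 CPM, a ratio of 0.135 (0.0858 to 0.207). Its level in epithelium was 107 CPM in Flcn KO against 556 CPM in Flcn WT. The ratio was 0.166 in other endothelium, 0.193 in epithelium and 0.156 in stroma. Droplets can hold free RNA from other cells, and its part in the counts of these cells was not tested.

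Igfbp5, an insulin-like growth factor binding protein, had 289 UMIs in Flcn KO and 457 in Flcn WT, or 35.6 against 133 CPM. The median per barcode was 0 in Flcn KO (highest 25) and 1 in Flcn WT (highest 70). Its ratio of 0.268 (0.231 to 0.312) stood beside 0.245 in other endothelium, 0.134 in Gja4-positive endothelium, 0.772 in epithelium and 0.569 in stroma. The endothelial groups had the lower ratios. Adamts16, a secreted metalloprotease, was at 20.2 CPM in Flcn KO and 54.2 CPM in Flcn WT, a ratio of 0.372, beside 0.323 in other endothelium and 0.573 in epithelium.

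Alad, an enzyme of haem synthesis, was detected more evenly, with a median of 2 UMIs per barcode in Flcn KO and 4 in Flcn WT, and a ratio of 0.504 (0.437 to 0.582). Plac8 was at 64.5 CPM in Flcn KO and 132 CPM in Flcn WT, a ratio of 0.4899, whereas in epithelium the ratio was 1.81. Dync1i1, Ifi27l2a, Lhx6, Enpp6, Alcam and Mlkl had ratios from 0.328 to 0.483, and without cycling barcodes Alcam was at 1.26. Dlk1 had 3 UMIs in Flcn KO and 99 in Flcn WT, all 99 in 3 barcodes and 68 of them in 1. Dlk1 was high in barcodes with both Gja4 and Ehd3, at 105 CPM in Flcn KO and 224 CPM in Flcn WT.

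**Figure D3:**
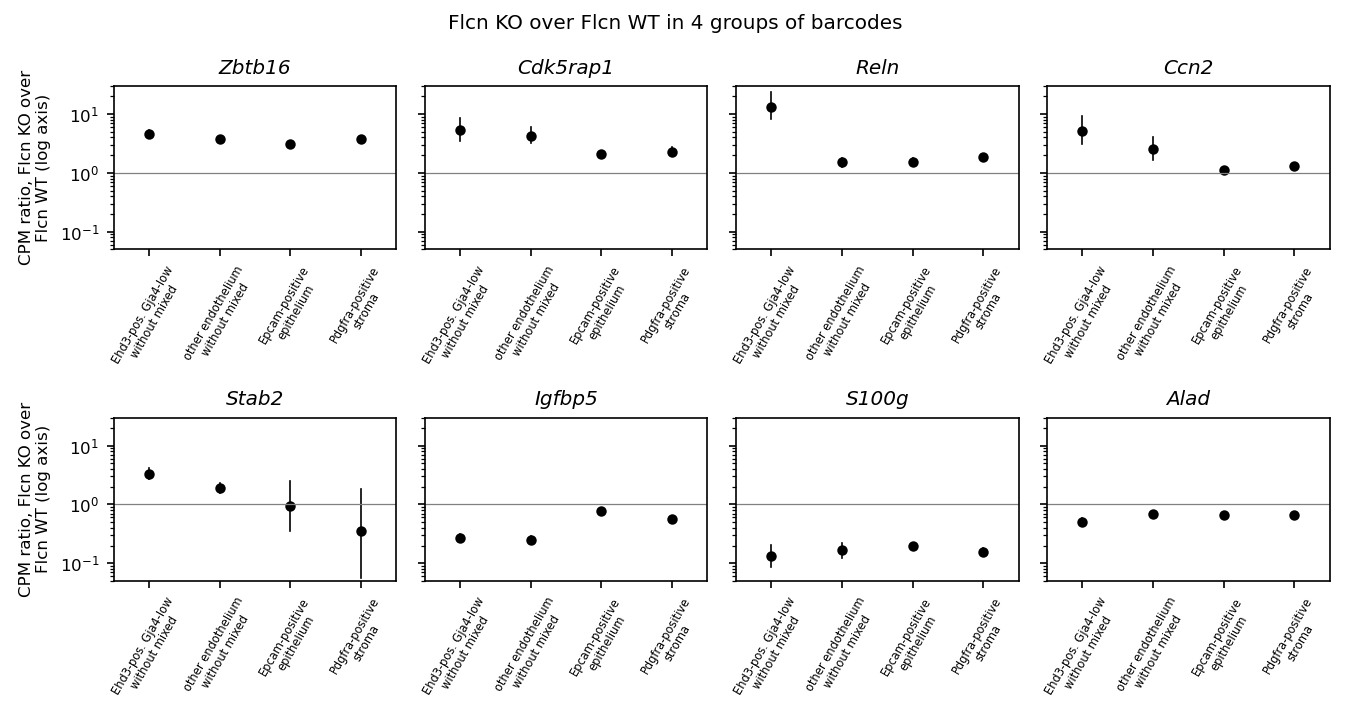
Ratio of CPM, Flcn KO over Flcn WT (log axes), of 8 genes in 4 groups of barcodes, each point 1 ratio of summed UMIs with its 95% counting interval. Zbtb16 and Cdk5rap1 lie above 1 and S100g and Alad below 1 in all 4 groups, while Reln is farthest from 1 in Ehd3-positive Gja4-low endothelium.

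The targeted gene and its pathway were then examined. Flcn lies on the minus strand of chromosome 11 (59791408 to 59810016 in GRCm38). Its transcripts gave 86 UMIs in Flcn KO and 49 in Flcn WT, a ratio of 0.946 (0.659 to 1.37), and 1.24 (0.786 to 2.02) without mixed barcodes. With each barcode thinned to 5000 UMIs it was 2.78. Thinning keeps only a small part of the UMIs, and 86 and 49 were few already, so this last ratio is imprecise. Counts at the 3′ end of transcripts do not check a deletion whose exons the labels do not name, and these cells lie outside the Cre lineage. Fnip1, a partner of folliculin, was at 127 CPM in Flcn KO and 116 CPM in Flcn WT, and Fnip2 at 39.8 and 52.2 CPM.

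Both partners had a lower ratio here than in epithelium. For Fnip1 the ratio was 1.097, against 1.57 in epithelium, and for Fnip2 0.762, or 0.948 without mixed barcodes, against 2.11. Tfeb and Tfe3 had ratios of 0.821 (0.597 to 1.13) and 1.203 (0.971 to 1.496), intervals that include 1. Without mixed barcodes they were 0.9904 and 1.14. After thinning to 5000 UMIs they were 4.04 and 1.85, again on a small part of the UMIs and so imprecise. The ratio of Tfeb was 1.28 without cycling barcodes, so the side of 1 on which it lay depended on the setting, as did that of Tfe3, which was 0.966 on averages over barcodes. Mitf, a related factor, had a ratio of 0.341 with mixed barcodes and 1.46 (0.789 to 2.86) without, on 48 Flcn KO and 14 Flcn WT UMIs. Gpnmb, a transmembrane glycoprotein induced by TFE factors, had 5 UMIs in Flcn KO and 2 in Flcn WT, whereas epithelium had 761 and 30, a ratio of 29.5 (20.5 to 44.02).

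Lysosomal lists gave the same contrast. A list is described by how many of its genes with at least 10 UMIs were higher in Flcn KO and by their median log2 ratio, with 0.5 UMI added to each sum. Over all genes 46.1% were higher, with a median of -0.03, and without mixed barcodes 49.6%, with a median that rounds to -0.00. Of 42 genes for lysosomal hydrolases and membrane proteins, 10 were higher with a median of -0.15, and 12 with a median of -0.11 without mixed barcodes. In epithelium, where 41.8% of all genes were higher, 40 were higher with a median of 0.59. Lamp1, a lysosomal membrane protein, was at 181 CPM in Flcn KO and 225 CPM in Flcn WT. Cd63, a tetraspanin of late endosomes, was at 57.8 and 106 CPM with mixed barcodes and 39.03 and 53.7 CPM without.

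Of 15 subunits of the vacuolar ATPase, the proton pump of the lysosome, 2 were higher in Flcn KO (median -0.24; 4 and -0.12 without mixed barcodes), while 15 of 15 were in epithelium (median 0.63). Of measured TFEB and TFE3 targets, 7 of 20 were higher in these cells (median -0.14; 8 of 20 and -0.10 without mixed barcodes) and 20 of 21 in epithelium (median 0.78). Oxidative phosphorylation genes were higher for 2 of 32 in these cells (median -0.16; 2 of 32 and -0.13 without mixed barcodes) and for 32 of 32 in epithelium (median 0.23). With the rule applied after thinning to 10000 UMIs the oxidative phosphorylation median was 0.067. In other endothelium, where 48% of all genes were higher in Flcn KO, lysosomal genes were higher for 26 of 42 (median 0.03) and without mixed barcodes for 16 of 42 (median -0.07). Vacuolar ATPase subunits were higher there for 8 of 15 (median 0.08), or 7 of 15 without mixed barcodes (median -0.02). TFEB and TFE3 targets were higher there for 17 of 21 (median 0.17), or 13 of 20 without mixed barcodes (median 0.06), and oxidative phosphorylation genes for 8 of 32 (median -0.08). The lysosomal and vacuolar ATPase medians of other endothelium thus turned with mixed barcodes, whereas the median of the targets stayed above 0.

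VEGF signalling and the Notch pathway, by which endothelial cells select sprouting tip cells, came next. Of VEGF, angiopoietin and apelin genes, 12 of 19 were higher in Flcn KO without mixed barcodes (median 0.12; 13 of 20 and 0.06 with them). Apln, the apelin ligand made by tip cells, was at 33.98 CPM in Flcn KO and 15.4 CPM in Flcn WT, a ratio of 2.21 (1.64 to 3.02) against 1.24 in other endothelium. Esm1, another tip cell gene, was at 40.4 against 26.4 CPM, a ratio of 1.53 in both these cells and other endothelium. The receptors differed less, with ratios of 0.887 for Kdr, 1.03 for Flt1, 0.866 for Tek and 0.878 for Aplnr.

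Notch pathway genes were higher for 13 of 16 in Flcn KO (median 0.21), and for 12 of 17 with mixed barcodes (median 0.12). The ligand Dll4 was at 94.6 CPM in Flcn KO and 58.6 CPM in Flcn WT, with a median of 3.5 and 2 UMIs per barcode and a ratio of 1.61 (1.38 to 1.89). Hes1, a target of Notch, was at 672 against 499 CPM, a ratio of 1.35. The receptor Notch1 was at 215 against 215 CPM, so ligand and target stood apart between libraries where the receptor did not. In other endothelium, where 48.4% of all genes were higher, 15 of 17 Notch genes were (median 0.19), with Dll4 at a ratio of 1.35 and Hes1 at 1.04. Epithelium had 1 of 18 higher.

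Of BMP and TGF-beta genes, 13 of 18 were higher in Flcn KO (median 0.11). Smad1, which carries the BMP signal to the nucleus, was at 478 CPM in Flcn KO against 289.8 CPM in Flcn WT (1.65; 1.17 in other endothelium). Tgfbr2, a TGF-beta receptor, was at 512 against 361 CPM (1.42; 1.13). The immediate targets Id1 and Id3 had ratios of 1.02 and 0.984. Of endothelial transcription factors, 17 of 24 were higher (median 0.14), among them Nr2f2 at a ratio of 1.47 and Erg at 1.29, while the flow-responsive factor Klf2 was at 0.917. In other endothelium 20 of 24 of these factors were higher (median 0.08).

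The glomerular programme list had 3 of 18 genes higher in Flcn KO without mixed barcodes (median -0.25) and 9 of 19 with them (median -0.02). Tbx3 was at 17.4 CPM in Flcn KO against 35.1 CPM in Flcn WT, a ratio of 0.495 (0.385 to 0.636) beside 0.926 in other endothelium. Prdm1, a transcriptional repressor, was at 36.3 against 18.6 CPM, a ratio of 1.96 beside 1.52. Cyp26b1, which degrades retinoic acid, was at 100.1 against 58.9 CPM, a ratio of 1.6999 beside 0.948. Without mixed barcodes 15 of the 18 genes were thus lower in Flcn KO, Tbx3 among them, with Prdm1 and Cyp26b1 among the 3 higher. Other endothelium without mixed barcodes had 5 of 20 genes of the list higher (median -0.23).

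Genes of the basement membrane and integrins were split, with 9 of 21 higher and 12 lower (median -0.03). Of the 21, 3 were at least 1.5-fold higher, namely Lama4, Lamb1 and Itga1, and 0 as much lower. Over all 15406 genes 1577 and 1136 were. Laminin chains Lama4 and Lamb1 were at 329 and 106 CPM in Flcn KO against 188 and 60.05 CPM in Flcn WT. Their ratios were 1.75 and 1.76, against 1.09 and 1.204 in other endothelium. Itga1, a collagen-binding integrin, had a ratio of 1.77 without mixed barcodes and 1.08 with them. Collagen IV chain Col4a1 had a ratio of 0.948. Junction genes had 8 of 17 higher (median -0.04; 9 of 18 and 0.01 with mixed barcodes), with the adhesion molecule Jam2 at 29.2 CPM in Flcn KO and 54.2 CPM in Flcn WT, a ratio of 0.538.

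Genes of EHD proteins and of caveolae were higher for 2 of 13 in Flcn KO (median -0.14). Ehd4, a paralogue of Ehd3, had a ratio of 0.9802, and Plvap was at 841 CPM in Flcn KO against 1092 CPM in Flcn WT. The ratio of Plvap was 0.7702 (0.7401 to 0.802), close to the 0.778 of other endothelium. Among coagulation and vasoactive genes 9 of 19 were higher (median -0.03; 11 of 21 and 0.02 with mixed barcodes). Edn1, the vasoconstrictor endothelin-1, had 253 UMIs in Flcn KO and 35 in Flcn WT, a ratio of 3.07 (2.15 to 4.504), and Thbd, the anticoagulant receptor thrombomodulin, was at 63.3 against 112 CPM, a ratio of 0.567 (0.496 to 0.648). In other endothelium the ratio was 1.64 for Edn1 and 0.725 for Thbd.

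Interferon and antigen presentation genes were mostly lower in Flcn KO, with 1 of 20 higher (median -0.31) and 6 of 20 with mixed barcodes (median -0.14). Irf7, a transcription factor of the interferon response, was at 24.01 CPM in Flcn KO against 45.8 CPM in Flcn WT, a ratio of 0.524 (0.423 to 0.6503). H2-K1, a class I antigen-presenting molecule, was at 32.4 against 51.3 CPM, a ratio of 0.631 beside 1.05 in other endothelium. For the list the median was -0.09 in other endothelium without mixed barcodes and 0.52 in epithelium.

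Sterol and fatty acid synthesis genes were higher in Flcn KO for 1 of 24 with mixed barcodes (median -0.47) and for 4 of 24 without (median -0.28). They were higher for 5 of 24 in other endothelium without mixed barcodes (median -0.15) and for 6 of 25 in epithelium (median -0.16). In Gja4-positive endothelium 16 of 25 were higher (median 0.08). Hmgcs1, an enzyme of the mevalonate pathway, had a ratio of 0.495 with and 0.767 without mixed barcodes, at 39.2 CPM in Flcn KO against 51.1 CPM in Flcn WT in the second case. Immediate-early and heat shock genes were higher for 15 of 21 (median 0.33), with Fos at 1889 against 1349.8 CPM and Egr1 at 914 against 651 CPM. Tissue dissociation is known to induce these genes, and its part in other differences was not tested. The ratio of Fos was 1.399, beside 1.36 in other endothelium. Hspb1, a small heat shock protein, had a ratio of 0.583.

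Glucocorticoid-responsive genes, a list that holds Zbtb16, were higher for 8 of 12 (median 0.36; 9 of 13 and 0.16 with mixed barcodes), for 12 of 13 in other endothelium (median 0.36) and for 13 of 13 in epithelium (median 0.77). Fkbp5, a co-chaperone of the glucocorticoid receptor, was at 121 CPM in Flcn KO against 83.3 CPM in Flcn WT, a ratio of 1.45 beside 1.96 in other endothelium. Tsc22d3, another target of the receptor, was at 66.6 against 78.9 CPM and so lower in Flcn KO. Among insulin-like growth factor and imprinted genes 8 of 18 were higher (median -0.09; 11 of 18 and 0.05 with mixed barcodes), with the receptors Igf1r at a ratio of 1.56 and Insr at 1.54. Of other lists, glycolysis and hypoxia had 10 of 21 genes higher in Flcn KO (median -0.05; 8 of 22 and -0.14 with mixed barcodes). Fatty acid uptake and lipid handling had 6 of 14 (median -0.08; 10 of 16 and 0.11 with mixed barcodes), and guidance receptors and ephrins 10 of 18 (median 0.01; 8 of 18 and -0.07 with mixed barcodes). Leukocyte adhesion had 7 of 15 (median -0.04; 10 of 15 and 0.22 with mixed barcodes), and ribosomal proteins 23 of 90 (median -0.04; 55 of 90 and 0.02 with mixed barcodes). Of these lists, the medians of insulin-like growth factor, lipid handling, guidance, leukocyte adhesion and ribosomal genes lay on different sides of 0 with and without mixed barcodes.

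**Figure D4:**
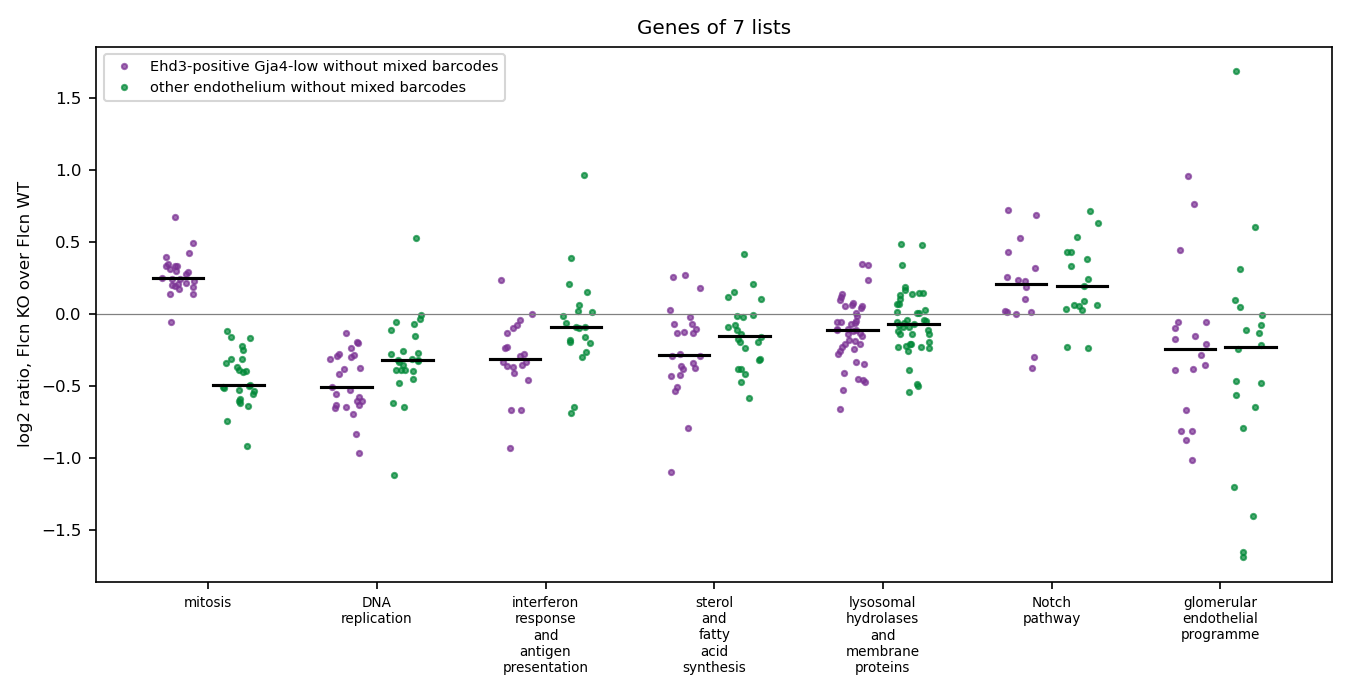
Log2 ratio, Flcn KO over Flcn WT (vertical axis), of each measured gene of 7 lists (horizontal axis), in Ehd3-positive Gja4-low endothelium (purple) and other endothelium (green), both without mixed barcodes, with a bar at the median. Of the mitosis genes 24 of 25 lie above 0 in the first and 0 of 25 in the second, with medians of 0.25 and -0.49.

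Mitosis transcripts were found in a larger share of these cells than of other endothelium in Flcn KO, whereas in Flcn WT the intervals overlapped. The barcodes with at least 2 UMIs over 25 mitosis genes, after thinning to 5000 UMIs, were 99 of 172 in Flcn KO (57.6%, 49.8 to 65.0%) and 46 of 87 in Flcn WT (52.9%, 41.9 to 63.7%), with 2 Flcn WT barcodes too shallow. In other endothelium the shares were 40.2% in Flcn KO (34.7 to 45.9%) and 40.1% in Flcn WT (33.7 to 46.8%), in epithelium 29.9% and 32.4%, and in stroma 30.4% and 30.7%. Within other endothelium, barcodes low for Ehd3 and Gja4 had 43.2% (36.7 to 49.9%) and 42.9% (35.4 to 50.7%). Gja4-positive barcodes had 31.2% and 31.6%. Against the barcodes low for both genes the intervals overlapped in both libraries, in Flcn KO only just. Without thinning the shares in Ehd3-positive Gja4-low endothelium were 91.3% and 88.8%. With the rule applied after thinning to 10000 UMIs they were 56.1% and 41.7%. Within Ehd3-positive Gja4-low endothelium the intervals of the libraries overlapped. Dividing cells hold more RNA, and the rule favours deep barcodes, so the excess over other endothelium cannot be told apart from that choice.

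All 25 mitosis genes were higher in Flcn KO than in Flcn WT within these cells (median 0.34 log2), and 1 was at least 1.5-fold higher, where 8.97% of all genes were. Without mixed barcodes it was 24 of 25 (median 0.25). In other endothelium 0 of 25 were higher (median -0.37), against 48% of all genes. In its Gja4-positive part 16 of 25 were higher (median 0.10), in stroma 17 of 25 (median 0.17) and in epithelium 0 of 25 (median -0.24). Over all 813 endothelial barcodes it was 14 of 25 (median 0.01), against 45.7% of all genes. The list's median was -0.50 without cycling barcodes, 0.056 with the rule set at 1 Ehd3 UMI and 1.04 with the rule applied after thinning to 10000 UMIs. Cycling barcodes are chosen by UMIs of this same list, so the first of these values is partly set by their removal. Aurkb, a kinase of chromosome segregation, was at 32.6 CPM in Flcn KO against 20.3 CPM in Flcn WT without mixed barcodes. Mki67, the proliferation marker Ki-67, was at 241 against 209 CPM, and 3 barcodes held 12.4% of its UMIs in Flcn KO and 34.4% in Flcn WT.

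DNA replication genes went the other way. Within these cells 1 of 25 were higher in Flcn KO (median -0.31), and without mixed barcodes 0 of 25 (median -0.51), with 9 at least 1.5-fold lower, where 7.37% of all genes were. Mcm3, a subunit of the replicative helicase, was at 66.5 CPM in Flcn KO against 119 CPM in Flcn WT, a ratio of 0.5604 (0.492 to 0.639). With the rule applied after thinning to 10000 UMIs the list's median was 0.11. Pcna, the sliding clamp, was at 114 against 139.8 CPM. The list's median was also below 0 in other endothelium (-0.32), epithelium (-0.64) and stroma (-0.44), and above 0 in Gja4-positive endothelium (0.16). Against other endothelium of the same library, Ehd3-positive Gja4-low endothelium was the higher for 24 of 25 replication genes in both libraries, with medians of 0.47 in Flcn KO and 0.45 in Flcn WT. For mitosis genes this median was 0.77 in Flcn KO and 0.03 in Flcn WT.

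**Figure D5:**
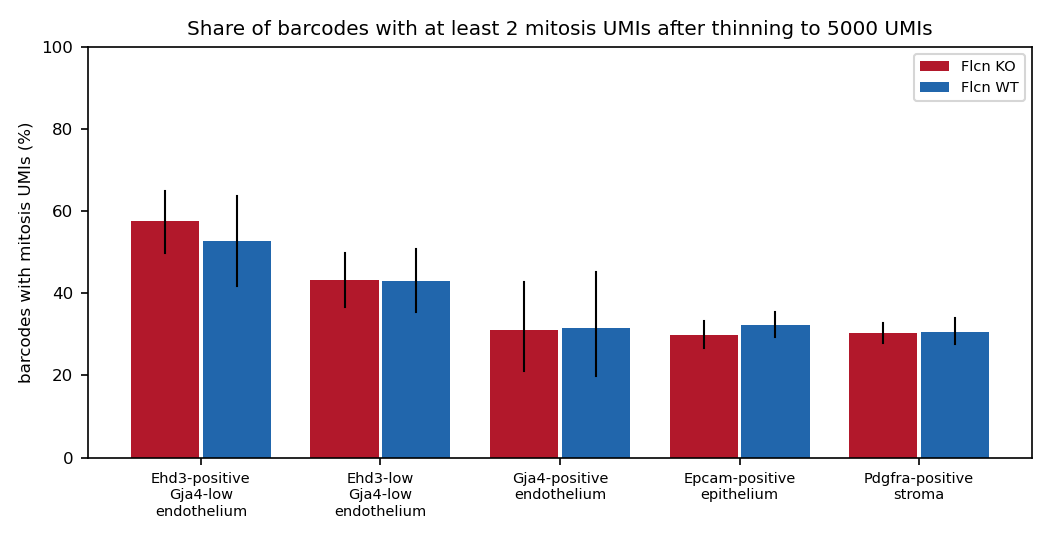
Share of barcodes with at least 2 mitosis UMIs after thinning to 5000 UMIs (vertical axis, percent from 0) in 5 groups, Flcn KO in red and Flcn WT in blue, with exact Clopper-Pearson 95% intervals as lines. Ehd3-positive Gja4-low endothelium has the highest shares, 57.6% in Flcn KO and 52.9% in Flcn WT. Its interval overlaps that of Ehd3-low Gja4-low endothelium in both libraries, in Flcn KO only just.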

How the data were processed

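The deposited matrices hold raw UMI counts per gene and barcode, 1 matrix per library, made with a 3′ droplet kit per the labels' protocols. Cell Ranger 7.1.0 (Flcn KO) and 7.0.0 (Flcn WT) made them, per the file headers. STAR 2.7.2a and bcl2fastq 2.20.0 and build GRCm38 (mm10) are named in the submitters' processing notes. The handling of intronic reads is not given in the sources used here. The deposited Flcn KO matrix held 5991 barcodes with 149679281 UMIs and the Flcn WT matrix 5572 with 147390790. 

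The rule, the comparisons and the 38 gene lists were chosen with earlier results of these data known. UMIs were summed over the barcodes of a group per library and scaled to nuclear-encoded UMIs. Ratios have exact conditional 95% intervals and shares exact Clopper-Pearson intervals, which cover counting error only and treat barcodes as 1 sample. Named genes are the 12 highest and 12 lowest with at least 50 UMIs and 20 CPM in 1 library, ranked by whichever interval bound lay closer to 1, then the genes of the rule and the folliculin pathway, and examples of a list. Rankings left out mitochondrial, ribosomal protein and haemoglobin genes, Y-linked genes, Xist and gene models without a name. The ranking against other endothelium used the same minimum, and results of a few ranked or listed genes are not reported here. List genes needed 10 UMIs. 4 list genes whose symbol stood on more than 1 row were left out, and genes with near-identical copies may share counts. Epithelium was taken as at least 2 Epcam UMIs and stroma as at least 2 Pdgfra and 0 Epcam UMIs, both without Pecam1, Cdh5 and Ptprc. Doublets were not removed in the main values. Scrublet (scanpy 1.11.5) scores and the removal of mixed barcodes were alternatives, the second chosen after seeing the data. All barcodes of these cells held Xist UMIs, and 1 per library held a Y-linked UMI. TMM (edgeR 4.0.16) and median-of-ratios scaling (DESeq2 1.42.0) moved log2 ratios by 0.02 each. The ratio intervals were tested on simulated counts. Scripts ran on pandas 2.3.3, scipy 1.17.1 and numpy 2.4.6 (Python 3.11.15) and on R 4.3.3.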

Additional observations from a re-analysis of the deposited data

Results flagged for a closer look

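Mitosis genes differed in direction between groups of endothelium. Flcn KO over Flcn WT, the median of 25 genes was 0.34 log2 in Ehd3-positive Gja4-low endothelium, with all 25 higher, and -0.37 log2 in other endothelium, with all 25 lower. The difference was not tested. Over all endothelial barcodes together the median was 0.01.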

How the results depend on the processing

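Of 307 main values recomputed under alternatives, 249 were counted as the same within the spread set for them, 55 as moved and 3 as reversed. A value near 0 could change sign and still count as the same. The median of BMP and TGF-beta genes did so, at 0.10 in the main setting and -0.012 after thinning to 5000 UMIs. Counted as reversed were the medians of DNA replication (0.11) and oxidative phosphorylation (0.067) with the rule applied after thinning to 10000 UMIs. The median of mitosis (-0.50) without cycling barcodes was counted so too. Cycling barcodes are chosen by these same mitosis genes, so their removal is no check of the mitosis median. In that thinned rule the medians were also 1.04 for mitosis, -0.25 for basement membrane, -0.36 for the glomerular programme and -0.048 for lysosomal genes. Without mixed barcodes, medians were -0.51 for DNA replication, -0.31 for interferon, 0.25 for mitosis and -0.28 for sterol genes. After removal of high doublet scores they were -0.22 for interferon, -0.051 for oxidative phosphorylation and -0.22 for sterol genes. After thinning to 5000 UMIs they were -0.45 for DNA replication, -0.20 for interferon, -0.10 for oxidative phosphorylation and -0.21 for sterol genes. Averaging over barcodes gave -0.22 for interferon and 0.42 for mitosis. With at least 1 or at least 3 Ehd3 UMIs the mitosis median was 0.056 or 0.51, and oxidative phosphorylation was -0.086 at 3. The share of endothelium was then 49.8 or 26.3% in Flcn KO and 42.1 or 19.2% in Flcn WT, and of kept barcodes 4.84 or 2.56% and 3.25 or 1.48%. With the thinned rule it was 16.1% and 13.5% of endothelium and 1.504% and 0.988% of kept barcodes.

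The number of genes with enough UMIs differed between settings, so each count is given with it. Genes at least 2-fold higher in Flcn KO were 1241 of 20419 with at least 1 UMI in each library. They were 455 of 14592 with 20 UMIs and 90 of 10444 with 100. On averages over barcodes they were 257 of 12144, and after thinning to 5000 they were 59 of 4935. Those at least 2-fold lower were 1963, 732 and 213 of the same totals for the same minimums, and 29 of 4935 after thinning to 5000. They were 127 of 9161 with the thinned rule and 133 of 9282 without cycling barcodes. Without high doublet scores they were 139 of 11609, and without mixed barcodes 59 of 11335. Against other endothelium the higher genes were 267 of 12116 with at least 1 Ehd3 UMI and 71 of 11856 with the thinned rule. They were 31 of 11390 against endothelium low for Ehd3 and Gja4, with 212 lower, and 679 of 10828 against Gja4-positive endothelium. Cycling shares in Flcn KO were 91.3% unthinned and 48.3% at 3000 UMIs, and in Flcn WT 88.8%, 39.3% and, with the thinned rule, 41.7%.

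Single genes reversed without mixed barcodes (Col1a2 0.943, Kcnb2 0.424, Magi2 0.663, Mitf 1.46), without cycling barcodes (Alcam 1.26, Magi2 0.454, Mitf 1.03), without podocyte UMIs (Magi2 0.701), after thinning (Cdh2 0.824) and with the thinned rule (Cdh2 0.3798, Mybpc1 0.580, St8sia4 0.875). Of 583 values of single genes 404 stayed the same and 167 moved. The cause was not tested. No paired analysis was possible because each genotype has 1 library. Genes with few UMIs limit the precision.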
